A study of Mus musculus with 10 samples.

Results

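The glucocorticoid-responsive genes described here are 10 genes of the mouse that respond to the glucocorticoid receptor in many tissues. They were chosen by symbol, with earlier results of these data known. They were found by Entrez Gene identifier among the 26301 identifiers counted in spinal cord RNA: Fkbp5, Sgk1, Ddit4, Nfkbia, Tsc22d3, Zbtb16, Pdk4, Cdkn1a, Mt1 and Mt2. All 10 were found, and all 10 were above the filter on low counts that left 15540 genes for testing. The data are 10 RNA sequencing libraries of whole spinal cord from C57BL/6 mice, for which the labels give no treatment and no transgene. They comprise 3 female and 3 male libraries from mice of 8 weeks, and 2 female and 2 male libraries from mice of 4 weeks. The labels do not say whether each library came from a separate animal, so a p-value here reflects the spread among these libraries, part of which may be technical.

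Glucocorticoids, corticosterone in the mouse, are released from the adrenal cortex and act through the glucocorticoid receptor, which the gene Nr3c1 encodes. Held by chaperones until it binds hormone, the receptor then moves to the nucleus, where it binds response elements and raises or lowers the transcription of nearby genes. In the central nervous system neurons and glia both carry the receptor, and its targets follow the daily and stress-driven swings of the hormone. None of the 10 genes responds to this hormone alone. Ddit4 is also a gene of the ATF4 and hypoxia responses, Nfkbia of NF-kB, Cdkn1a of p53, and Mt1 and Mt2 of metals.

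Of the 10 genes, 9 had promoter windows in the RefSeq table of build GRCm38.p6, with 17 windows in all, and Zbtb16 is named only. The windows were searched over 250 bases before each start site, on both strands. The palindrome that the receptor dimer binds, searched as GNACA and TGTNC with any 3 bases between them, was present in 2 of these 17 windows and in 0.387% of all 32851 windows. The half-site AGAACA was present in 4 of the 17 and in 16.1% of all windows. The stretches below are shown because they hold those 2 palindromes, at Sgk1 and Mt1, and the metal elements of Mt1 and Mt2. A match describes letters in a window and was not measured as a bound site. The Sgk1 stretch lies at chr10:21993640-21993889 (GRCm38.p6, plus strand), 1 of 6 Sgk1 windows in the table. Its palindrome begins at position -188 from the start site. Capitals mark the palindrome together with half-sites that overlap it, from -189 and from -180, and a further half-site from -242.
Sgk1: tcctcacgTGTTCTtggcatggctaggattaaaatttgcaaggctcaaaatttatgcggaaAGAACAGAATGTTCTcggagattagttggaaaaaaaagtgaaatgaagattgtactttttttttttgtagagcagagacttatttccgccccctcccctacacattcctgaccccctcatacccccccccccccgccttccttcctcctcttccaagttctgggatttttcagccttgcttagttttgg
The Mt1 stretch, at chr8:94178929-94179078 (plus strand), runs between positions -160 and -11. Its capitals mark the palindrome at -94 and a metal response element, TGCACNC or TGCGCNC, at -23.
Mt1: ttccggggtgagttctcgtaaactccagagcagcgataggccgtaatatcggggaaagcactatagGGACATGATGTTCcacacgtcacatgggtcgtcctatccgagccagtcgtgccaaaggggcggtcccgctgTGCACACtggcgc
The Mt2 stretch, at chr8:94172378-94172577 (plus strand), runs between positions -240 and -41. Its capitals mark 3 metal response elements, at -223, -128 and -50. At least 1 such element was present in 4 of the 17 windows, those of Mt1, Mt2, Ddit4 (at -184) and Nfkbia (at -226), and in 21.4% of all windows. At least 3 were present in 1.26% of all windows.
Mt2: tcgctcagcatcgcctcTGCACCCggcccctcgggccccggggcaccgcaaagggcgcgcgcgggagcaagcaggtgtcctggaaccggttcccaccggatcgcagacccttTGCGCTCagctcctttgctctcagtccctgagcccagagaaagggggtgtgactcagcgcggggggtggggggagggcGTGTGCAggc

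Library totals lay between 8453559 and 11594610 counts, and between 18407 and 18884 genes had a count. Levels below are CPM, counts scaled to each library's size with TMM factors, and fold changes are log2 values from edgeR. The tissue label was checked against 8 Hox genes of the cord, whose summed level was 452 to 484 CPM at 8 weeks and 371 to 434 CPM at 4 weeks. Several libraries stand apart in transcripts of other tissues. Male 4-week libraries 1 and 2 held an adrenal cortex list at 112 to 151 CPM, against 20.1 to 26.2 CPM in the other libraries. Male 8-week libraries 2 and 3 held 454 to 3459 counts of Sftpc, a lung surfactant gene, against at most 46 elsewhere. The skeletal muscle list summed to 132 to 279 CPM at 8 weeks and 607 to 2213 CPM at 4 weeks. The oligodendrocyte list summed to 38057 to 45473 CPM at 8 weeks and 60767 to 64569 CPM at 4 weeks, and in bulk RNA fewer cells of a type and less RNA per cell cannot be told apart. Values without those libraries or with a skeletal muscle score as a covariate are given in places, and the part of these other transcripts was otherwise not tested. The score, the mean log2 level of the muscle list relative to each gene's mean, was 1.00 to 2.97 at 4 weeks. At 8 weeks it was -2.06 to -0.56. Since the ages do not overlap in it, a fit by age with the score cannot tell age and muscle transcripts apart.

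All 10 genes were expressed in every library, across a wide span of levels. Per kilobase of a gene's annotated exons merged over all its transcripts (GENCODE M21 gene models), the metallothioneins were the most abundant over the 10 libraries. Mt2 averaged 312 ± 46.8 and Mt1 280 ± 35.1 CPM per kb (SD, n = 10). Both proteins bind zinc and copper. Tsc22d3, which encodes the anti-inflammatory leucine zipper protein GILZ, followed at 50.5 ± 5.91 CPM per kb, and Ddit4, whose product REDD1 restrains mTORC1, at 44.7 ± 8.79 CPM per kb. Sgk1, a kinase that acts on ion channels and transporters, averaged 24.5 ± 11.7 CPM per kb, and Nfkbia, the NF-kB inhibitor IkBa, 19.3 ± 4.41 CPM per kb. Cdkn1a, the cell cycle inhibitor p21, averaged 10.7 ± 0.83 CPM per kb. Pdk4, a kinase that shuts pyruvate out of oxidation, averaged 5.43 ± 0.51 CPM per kb. Fkbp5, a chaperone that lowers the receptor's affinity for hormone, averaged 3.13 ± 0.32 CPM per kb, and Zbtb16, the zinc finger factor PLZF, 2.33 ± 0.42 CPM per kb. Neighbours in this order overlapped in their ranges over libraries, with the exceptions that follow. Mt1 lay above Tsc22d3, Nfkbia above Cdkn1a, Cdkn1a above Pdk4 and Pdk4 above Fkbp5 in every library's value. The order depends on the merged lengths, which count every annotated exon whether or not it is expressed in the cord. In CPM, without length, Mt1 averaged 349, Tsc22d3 219 and Mt2 183 over the 10 libraries. The spans of Mt2, Cdkn1a and Fkbp5 overlap those of other annotated genes, though overlap of their exons was not examined, and Mt1 and Mt2 are close copies. Their counts are less certain, since how shared and antisense reads were counted is not stated in the labels or files.

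Between 8 and 4 weeks, over both sexes, 1 of the 10 genes passed the test. It was Ddit4, which fell, against 6.62% of all 15540 tested genes called in either direction and 5.01% called lower. Ddit4 lay between 55.2 and 90.4 CPM in the 6 libraries of 8 weeks, with a median of 67.8 CPM. In the 4 libraries of 4 weeks it was at 83.6 and 89.4 CPM in females and 90.5 and 94.7 CPM in males. Of the 8-week libraries 4 lay below all of the 4-week ones, and the other 2, male libraries 1 and 2, lay among them. The log2 fold change was -0.35 ± 0.09 (SE; adjusted p = 0.0333, edgeR quasi-likelihood test with Benjamini-Hochberg adjustment), with means of 71.1 ± 15.8 CPM at 8 weeks and 89.6 ± 4.59 CPM at 4 weeks (SD, n = 6 and n = 4).

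That call depends on single libraries. The adjusted p of edgeR was 0.106 without female 4-week library 1, 0.0947 without female 4-week library 2, 0.0685 without male 8-week library 3, and 0.0640, 0.0761 and 0.0829 without female 8-week libraries 1, 2 and 3 in turn. With the male 8-week libraries rich in lung transcripts (2 and 3) left out, Ddit4 had a log2 fold change of -0.38 and an adjusted p of 0.0740. With the pair of male 4-week libraries left out, which leaves the age comparison in females alone, it had -0.57 and 0.0112. A fit with the skeletal muscle score as a covariate gave -0.30 ± 0.22 (SE) and an adjusted p of 0.539. Because that score separates the ages, this fit cannot decide between age and muscle transcripts.

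Tsc22d3, the gene next to Ddit4 by age, lay between 180 and 245 CPM in the 6 libraries of 8 weeks, with a median of 197 CPM. In the 4-week libraries it was at 249 and 226 CPM in females and 239 and 241 CPM in males. Of the 8-week libraries 5 lay below all of the 4-week ones, and male 8-week library 2 lay among them. The log2 fold change of -0.22 ± 0.07 (SE) did not pass (adjusted p = 0.0656, edgeR). It passed in 6 of 22 alternative fits. These included edgeR without male 8-week library 2 (0.0235) and without male 4-week library 2 (0.0474), and DESeq2 (0.0389). Others were edgeR with no low count filter (0.0497) and with the mean of contrasts within strata (0.0472). Leaving out the pair of male 4-week libraries reduces the fit to females alone, where its adjusted p was 0.0471. With all libraries in the fit, Tsc22d3 did not pass by age in females in edgeR (-0.34 ± 0.08, adjusted p = 0.0807). There it passed in 5 of 21 alternative fits, among them DESeq2 (0.0287) and edgeR with no low count filter (0.0424).

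The other 8 genes had age values between -0.17 for Mt2 and 0.09 for Zbtb16 on the log2 scale, none past the adjusted threshold. In order they were Mt2 at -0.17 ± 0.11, Mt1 at -0.14 ± 0.09, Sgk1 at -0.14 ± 0.24, Fkbp5 at -0.10 ± 0.09, Pdk4 at -0.05 ± 0.09, Nfkbia at 0.01 ± 0.10, Cdkn1a at 0.03 ± 0.08 and Zbtb16 at 0.09 ± 0.14 (log2 fold change ± SE). Every one of the 10 overlapped between ages, where 7.73% of all tested genes did not. The median over the 10 genes was -0.12, beside 0.01 over all tested genes.

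**Figure D1:**
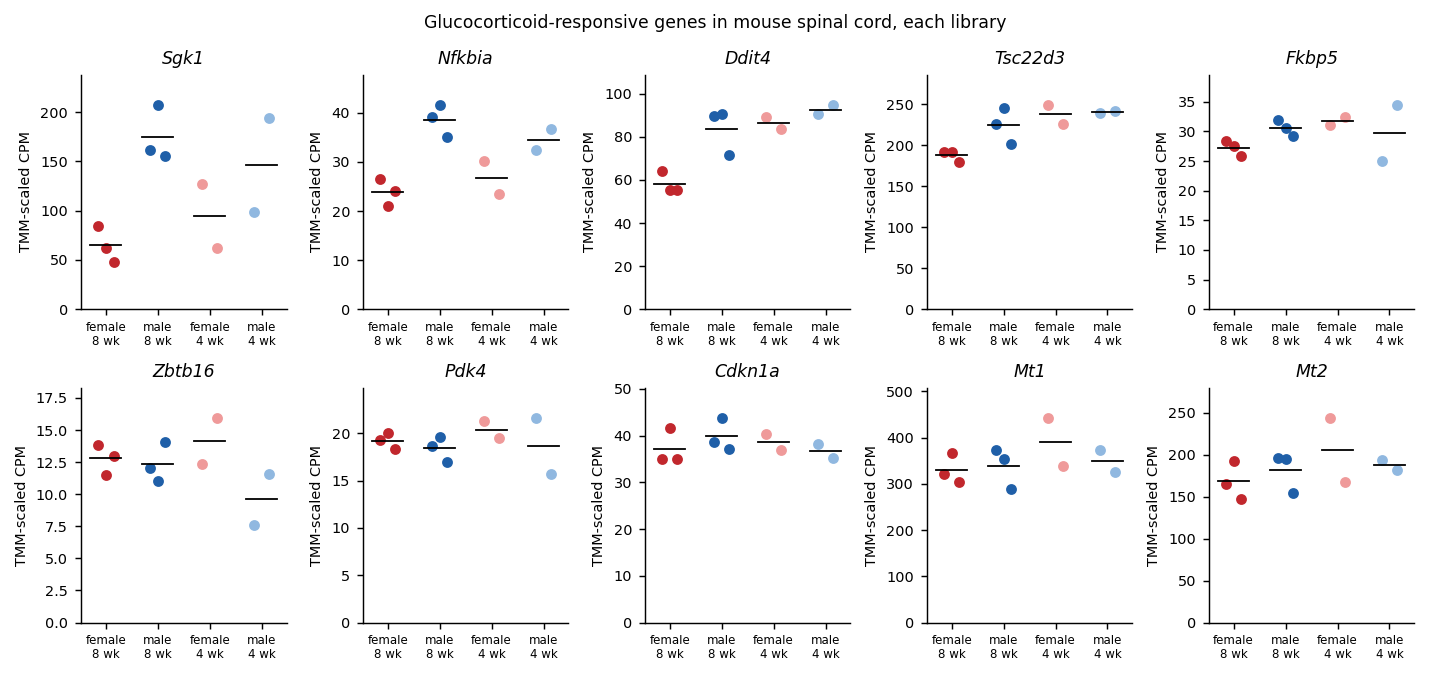
Level of each of the 10 genes in each library, in TMM-scaled CPM on a linear axis, 1 panel a gene, with the groups along the horizontal axis, points for libraries and a bar for the group mean. Sgk1, Nfkbia, Ddit4, Tsc22d3 and Fkbp5 lie lower in the 3 female than in the 3 male libraries of 8 weeks, while Mt1, Mt2, Pdk4, Cdkn1a and Zbtb16 overlap between these groups.

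Within each sex, the age value of Ddit4 was farther from 0 in females than in males, a difference that did not pass its own test. Female libraries held 64.1, 55.2 and 55.5 CPM of Ddit4 at 8 weeks, against 89.4 and 83.6 CPM at 4 weeks. Male libraries held 89.5, 90.4 and 71.5 CPM at 8 weeks, against 90.5 and 94.7 CPM at 4 weeks. Neither sex overlapped between the ages, though in males the nearest libraries of the 2 ages were at 90.4 and 90.5 CPM. In females the log2 fold change was -0.57 ± 0.11 (SE; adjusted p = 0.0234, edgeR), where 1.45% of all tested genes were called, and Ddit4 was the 1 gene of the 10 that passed. It did not pass without female 4-week library 1 (adjusted p = 0.171) or 2 (0.0962), or without female 8-week library 2 (0.0928) or 3 (0.115). In males it was -0.15 ± 0.11 (adjusted p = 0.547, edgeR).

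The test of the difference between these age effects, females minus males, gave -0.42 ± 0.15 for Ddit4 on the log2 scale (adjusted p = 0.970, edgeR). None of the 10 genes passed that test in edgeR, DESeq2 or limma-voom, and Ddit4 alone of the 10 had an unadjusted p under 0.05. Of all tested genes 0.0129% passed and 4.82% had an unadjusted p under 0.05. All 10 values were below 0, with a median of -0.25, beside 0.00 over all genes, though Pdk4 lay above 0 without male 4-week library 2, and Mt1 and Mt2 without female 4-week library 1. In females all 10 age values were below 0, between -0.57 and -0.05 with a median of -0.23, in the fit to all libraries. Without female 4-week library 1 those of Sgk1, Nfkbia, Cdkn1a and Mt2 lay above 0, without female 4-week library 2 that of Zbtb16 did, and with the skeletal muscle score as a covariate those of Pdk4, Cdkn1a, Mt1 and Mt2 did. In females 3 genes (Ddit4, Tsc22d3 and Fkbp5) did not overlap between ages, where 31.3% of all genes did not. In males 5 of 10 were below 0 with a median of 0.01, and edgeR, DESeq2 and limma-voom called 0 of the 10, with 0 at an unadjusted p under 0.05, against 3.22% of all genes called by edgeR. In males 1 of the 10 genes, Ddit4, did not overlap, where 30% of all genes did not. Both male 4-week libraries hold adrenal transcripts, so age in males and the interaction cannot be told apart from those transcripts. The values of the 10 genes also come from the same libraries, so a shared sign is not 10 separate observations.

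**Figure D2:**
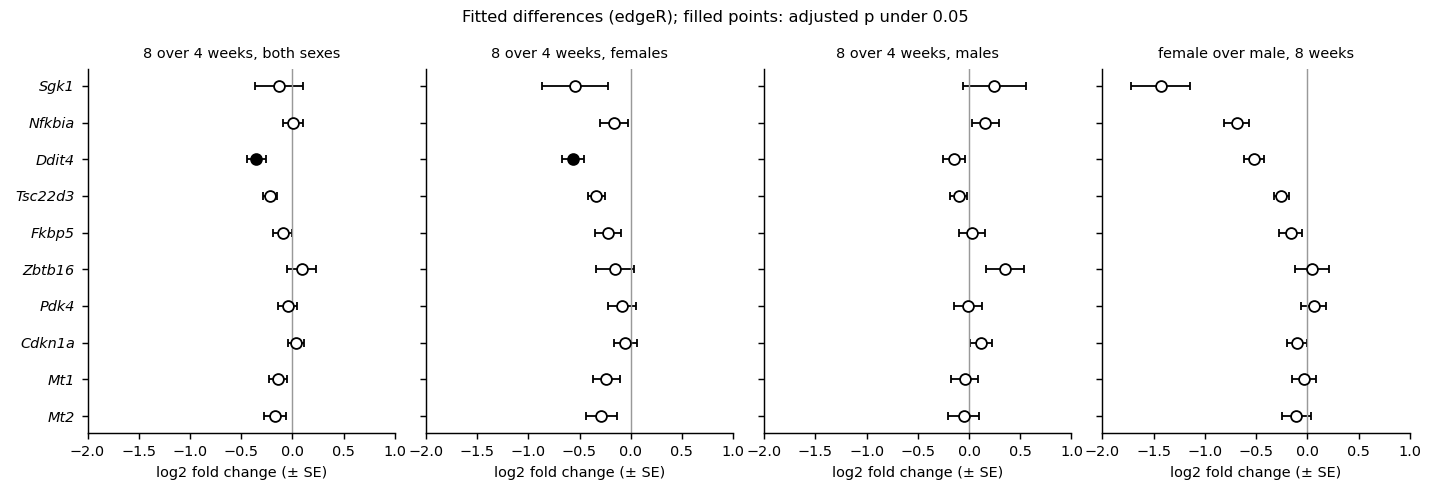
Log2 fold change of each of the 10 genes with its SE for age over both sexes, in females and in males and for sex at 8 weeks, with filled points where the adjusted p was under 0.05 and a line at 0. Ddit4 by age, over both sexes (-0.35) and in females (-0.57), is the call among the 10 genes, and the values farthest from 0 are those of Sgk1 between females and males of 8 weeks (-1.43).

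Sgk1 and Nfkbia each had their largest difference between groups between the sexes at 8 weeks, where none of the 10 genes passed the adjustment over all genes in edgeR. Sgk1 was at 84.4, 62.0 and 48.1 CPM in the female libraries of 8 weeks, against 162, 207 and 156 CPM in the male ones. Every female library lay below every male one, with means of 64.8 ± 18.3 CPM in females and 175 ± 28.2 CPM in males (SD, n = 3 each). The fitted log2 fold change, females over males, was -1.43 ± 0.29 (SE), a fold of 0.371 (adjusted p = 0.223, edgeR). Nfkbia was at 26.5, 21.0 and 24.1 CPM in these females, against 39.1, 41.6 and 35.2 CPM in these males. It too was lower in each female library, by -0.69 ± 0.12 on the log2 scale (adjusted p = 0.133, edgeR). With each library left out in turn, the adjusted p of edgeR lay between 0.0534 and 0.997 for Sgk1. For Nfkbia it lay between 0.0574 and 0.615.

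Ddit4, whose 8-week values are given above, averaged 58.3 ± 5.05 CPM in females and 83.8 ± 10.6 CPM in males of 8 weeks (SD, n = 3 each), with no overlap. Its log2 fold change was -0.52 ± 0.10 (SE; adjusted p = 0.170, edgeR), and without each library in turn the adjusted p lay between 0.0299, without male 8-week library 3, and 0.796, without female 8-week library 2. Tsc22d3 was at 192, 192 and 180 CPM in females and 226, 245 and 201 CPM in males, without overlap, for a log2 fold change of -0.25 ± 0.08 (adjusted p = 0.867, edgeR). Fkbp5 was at 28.4, 27.6 and 25.8 CPM in females and 31.9, 30.5 and 29.2 CPM in males. The fifth without overlap, its difference was -0.16 ± 0.11 (adjusted p = 0.867, edgeR).

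Zbtb16, Pdk4, Cdkn1a, Mt1 and Mt2 overlapped between the sexes at 8 weeks. Their log2 fold changes were 0.04 ± 0.17 for Zbtb16, 0.06 ± 0.12 for Pdk4, -0.10 ± 0.10 for Cdkn1a, -0.04 ± 0.12 for Mt1 and -0.11 ± 0.14 for Mt2 (SE). Thus 5 of the 10 genes did not overlap, all lower in females, where 15% of all tested genes did not overlap and 7.12% were lower without overlap. Sgk1, Nfkbia, Ddit4 and Tsc22d3, 4 of the 10, were lower at an unadjusted p under 0.05, where 2.87% of all tested genes were. These shares do not test the group, because the 10 genes were chosen with earlier results of these data known. Nor are these 4 genes separate observations, as they were measured in the same libraries. Their pairs had Pearson's r of 0.868 to 0.966 over the 8-week libraries, which includes the difference between the sexes that they share. Over all 10 libraries, deviations from the means of the 4 groups correlated at 0.562 to 0.807 for these pairs. The count past the adjusted threshold was 0 in edgeR and limma-voom and 2 in DESeq2, which called Nfkbia (adjusted p = 0.00153) and Ddit4 (0.00301), where edgeR called 0.045% and DESeq2 0.167% of all genes. The exact two-sided permutation test of log2(CPM + 0.5) gave 0.1 for each of the 5 genes without overlap, the smallest p that 3 against 3 libraries allow.

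**Figure D3:**
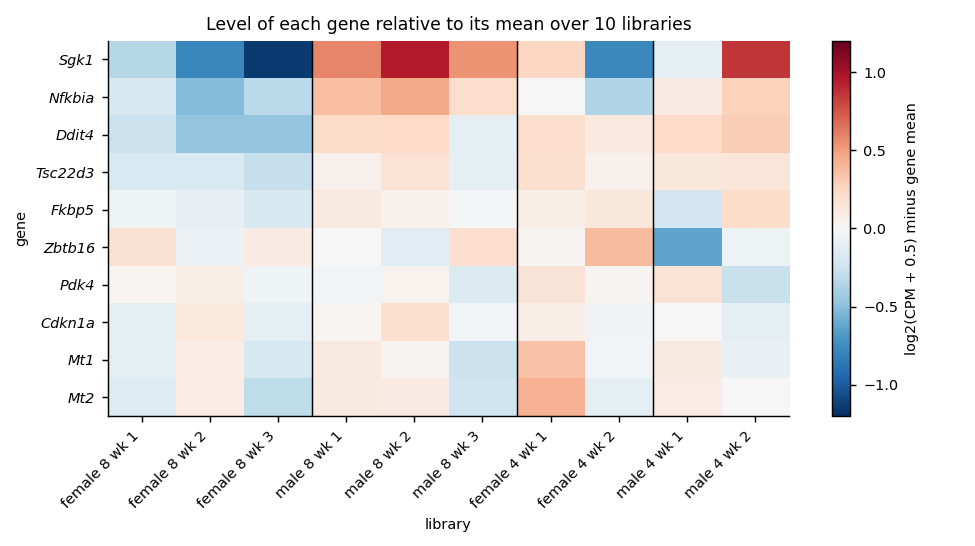
Log2 CPM of each gene minus its mean over the 10 libraries, with genes down the page, libraries across it and a colour scale in log2 units. The 3 female libraries of 8 weeks are below the mean for Sgk1, Nfkbia, Ddit4 and Tsc22d3, and the 3 male libraries of 8 weeks are above it for Sgk1 and Nfkbia.

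At 4 weeks the sexes were compared with 2 libraries each. Sgk1 was at 127 and 62.5 CPM in females and 98.6 and 194 CPM in males, which overlap, for a log2 fold change of -0.64 ± 0.35 (SE; adjusted p = 0.728, edgeR). Nfkbia was at 30.2 and 23.5 CPM in females and 32.4 and 36.7 CPM in males, which do not overlap, for -0.37 ± 0.15 (adjusted p = 0.637, edgeR). Zbtb16 lay the other way, at 12.4 and 15.9 CPM in females and 7.61 and 11.6 CPM in males, for 0.55 ± 0.21 (adjusted p = 0.622, edgeR). Nfkbia and Zbtb16 were the 2 of the 10 with an unadjusted p under 0.05 in edgeR, as had 7.36% of all genes. In edgeR and limma-voom 0 of the 10 passed the adjustment, where edgeR called 0.0708% of all genes. DESeq2 also called 0, but it gave no adjusted p for Sgk1, Ddit4, Nfkbia and Zbtb16, so it could not call them. Besides these only Tsc22d3 was examined for this, so more of the 10 may have lacked an adjusted p. In all, 3 of the 10 (Nfkbia, Ddit4 and Zbtb16) did not overlap between the sexes at 4 weeks, where 30.7% of all genes did not. Both male libraries in this comparison are those with adrenal transcripts, so the sexes at 4 weeks and the adrenal transcripts cannot be told apart.

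Over both ages, Nfkbia was the 1 gene of the 10 in which every female library, at 21.0 to 30.2 CPM, lay below every male library, at 32.4 to 41.6 CPM. Of all tested genes 0.94% did not overlap between the sexes. Its log2 fold change was -0.56 ± 0.10 (SE; adjusted p = 0.0593, edgeR), and the exact two-sided permutation test gave p = 0.00794, the smallest that 5 against 5 libraries allow. Without each library in turn the adjusted p of edgeR lay between 0.00672 and 0.204. It passed without male 4-week library 1 or female 4-week library 1, and it was 0.238 without male 8-week libraries 2 and 3. Sgk1 lay between 48.1 and 127 CPM in the 5 female libraries, with a median of 62.5 CPM, and between 98.6 and 207 CPM in the 5 male libraries, with a median of 162 CPM. Of the female libraries 4 lay below all male ones, for a log2 fold change of -1.11 ± 0.23 (adjusted p = 0.155, edgeR). Without each library in turn its adjusted p lay between 0.00897 and 0.487, and it passed only without male 4-week library 1 (0.0125) or female 4-week library 1. In edgeR and limma-voom 0 of the 10 genes passed over both ages, and in DESeq2 1 did, Nfkbia (adjusted p = 3.04e-04). At an unadjusted p under 0.05 in edgeR there were 4 of the 10, all lower, as were 4.23% of all genes, while 0.0901% of all genes passed in edgeR and 0.225% in DESeq2.

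Without male 8-week libraries 2 and 3, which leaves 1 male library of that age assumed to vary as the other groups do, the log2 fold changes at 8 weeks were -1.32 for Sgk1, -0.71 for Nfkbia, -0.62 for Ddit4, -0.27 for Tsc22d3 and -0.23 for Fkbp5. Without each library in turn the values lay between -1.67 and -1.26 for Sgk1, -0.77 and -0.61 for Nfkbia, -0.63 and -0.46 for Ddit4, -0.33 and -0.19 for Tsc22d3 and -0.20 and -0.13 for Fkbp5. Of the lists of fat, ganglion, Schwann and lung markers, 0 genes passed the adjustment between these groups in edgeR. The fat cell list summed to 16.7 to 49.7 CPM in females and 7.76 to 12.5 CPM in males. A list of 10 sensory ganglion genes, added after the data were seen, summed to 47.5 to 57.2 CPM in females and 52.9 to 86.6 CPM in males, and a list of 8 Schwann cell genes to 404 to 713 CPM in females and 364 to 1222 CPM in males. Of the 7 ganglion genes tested 5 were lower in females at an unadjusted p under 0.05, as were 6 of the 8 lung and 3 of the 8 Schwann genes. Of the 7 fat cell genes tested 3 were higher in females at such a p. Over all tested genes 2.87% were lower at such a p, and 4.83% differed in either direction. The part of these lists in the 5 genes' differences was not tested.

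**Figure D4:**
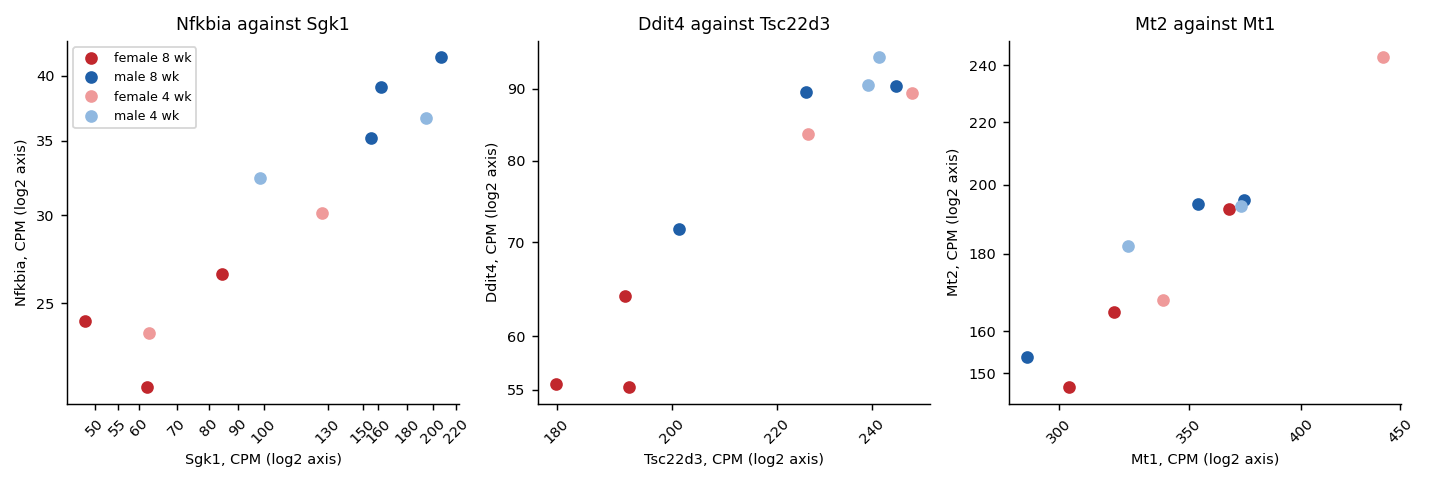
CPM of 3 pairs of genes, both axes on a log2 scale, over the 10 libraries, 1 point a library, coloured by sex and age. The points of Mt1 and Mt2 (Pearson r = 0.956), Ddit4 and Tsc22d3 (0.954) and Sgk1 and Nfkbia (0.937) rise together.

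Of the 45 pairs among the 10 genes, 3 were correlated over the 10 libraries after adjustment over the pairs (Pearson's r of log2 CPM, 100000 permutations). Mt1 and Mt2, neighbouring metallothionein genes whose close sequences could share reads, had r = 0.956 (permutation p = 1.3e-04, adjusted p = 0.00360) and Spearman's rho = 0.939 (permutation p = 1.6e-04, adjusted 0.00720). Without the 2 libraries farthest from the median of Mt1, r was 0.904. Ddit4 and Tsc22d3 had r = 0.954 (permutation p = 2e-04, adjusted 0.00360) and r = 0.951 without 2 libraries. Their rho of 0.782 did not pass (permutation p = 0.0108, adjusted 0.130). Sgk1 and Nfkbia had r = 0.937 (permutation p = 2.4e-04, adjusted 0.00360), rho = 0.939 (permutation p = 3.2e-04, adjusted 0.00720) and r = 0.940 without 2 libraries. These libraries differ by sex and age, and the permutations ran across the 4 groups, so the p-values also take in differences between groups. The 6 libraries of 8 weeks still differ by sex. Within them r was 0.953 for Mt1 and Mt2, 0.940 for Ddit4 and Tsc22d3 and 0.951 for Sgk1 and Nfkbia. In that order the exact permutation p was 0.025, 0.0139 and 0.0194, and 0.113, 0.104 and 0.109 after adjustment over the pairs. The deviations from the means of the 4 groups correlated at 0.963 for Mt1 and Mt2, 0.807 for Ddit4 and Tsc22d3 and 0.777 for Sgk1 and Nfkbia. These last values were not tested.

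Among 14050 other genes, the gene whose log2 CPM was most like that of each of the 10 over the same libraries was found by Pearson's r, as a description without a test. For both Sgk1 (r = 0.936) and Nfkbia (r = 0.911) it was Plekhf1, which is also on the list of other glucocorticoid targets below. For Ddit4 it was Mecr (0.940), for Tsc22d3 Coq10b (0.941), for Fkbp5 Adipor2 (0.924), for Zbtb16 Arrb1 (0.970) and for Pdk4 Nat8f1 (0.909). For Cdkn1a it was Stac (0.926), for Mt1 Khk (0.966) and for Mt2 Zfp524 (0.958). The points share libraries, depth and scaling, and each value is the highest of 14050.

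Other genes that receptor and hormone are known to act on or through were counted beside the 10. Of 20 other glucocorticoid targets, 0 were called higher and 1 lower at 8 weeks against 4 weeks in edgeR, with a median log2 fold change of -0.04. Lcn2, which also marks neutrophils, fell by 0.82 on the log2 scale (adjusted p = 0.0378, edgeR), with 12.3 CPM at 8 weeks and 22.0 CPM at 4 weeks; the neutrophil and marrow list summed to 131 to 222 CPM at 8 weeks and 229 to 630 CPM at 4 weeks. That call was lost in DESeq2 (adjusted p = 0.0620), without both male 4-week libraries, which leaves females alone (-0.46, adjusted p = 0.345), and without any 1 of male 4-week library 1, female 4-week library 2, male 8-week libraries 1, 2 and 3 and female 8-week libraries 1 and 2 (adjusted p between 0.0546 and 0.119). The second of that list by p, Sult1a1, had -0.54 (adjusted p = 0.0776, edgeR). Between females and males of 8 weeks 0 of the 20 passed in edgeR or limma-voom and 1 in DESeq2, while 8 were lower and 0 higher at an unadjusted p under 0.05 (Plekhf1, Cebpd, Errfi1, Txnip, Arrdc2, Per1, Sult1a1 and Dusp1), with a median of -0.26. Of all tested genes 2.87% were lower at such a p. Plekhf1 averaged 13.3 ± 2.06 CPM in females and 24.1 ± 1.93 CPM in males of 8 weeks (SD, n = 3 each), a log2 fold change of -0.85 ± 0.17 (adjusted p = 0.223, edgeR).

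Immediate early genes, which neuronal activity and handling raise quickly, were also lower in females of 8 weeks at an unadjusted p under 0.05 in 8 of 14, with 0 passing the adjustment in edgeR, DESeq2 or limma-voom and a median of -0.39. Of all tested genes 2.87% were lower at such a p. Dusp1 is counted both here and among the other glucocorticoid targets. Fos had -0.51 ± 0.13 (SE; adjusted p = 0.615, edgeR) and Nr4a1 -0.58 ± 0.14 (adjusted p = 0.590, edgeR). The list summed to 212 to 233 CPM in the females and 244 to 278 CPM in the males of 8 weeks. Its part in the differences of Sgk1, Nfkbia, Ddit4 and Tsc22d3 was not tested. The 15 clock genes had a median of -0.06 between these groups, with 1 at an unadjusted p under 0.05, Per1, which is also among the other glucocorticoid targets.

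The receptors and the machinery around them were higher by age in 2 of 15 genes and lower in 0, with a median of 0.09. Nr3c2, the mineralocorticoid receptor that also binds corticosterone, rose by 0.32 ± 0.09 on the log2 scale (adjusted p = 0.0462, edgeR), with 30.8 ± 1.70 CPM at 8 weeks and 24.5 ± 3.85 CPM at 4 weeks (SD, n = 6 and n = 4). The cochaperone Stip1 rose by 0.19 ± 0.05 (adjusted p = 0.0285, edgeR), with 244 ± 6.51 CPM at 8 weeks and 214 ± 10.3 CPM at 4 weeks. Neither call was firm: Nr3c2 passed without male 4-week library 2 or female 4-week library 2, but not without any other single library (adjusted p between 0.0688 and 0.122), and had -0.09 with the muscle score as a covariate. Stip1 did not pass without female 4-week library 2, male 8-week libraries 2 or 3 or female 8-week libraries 1 or 2 (adjusted p between 0.0535 and 0.0830). The glucocorticoid receptor Nr3c1 itself was at 105 ± 6.14 CPM at 8 weeks and 102 ± 9.19 CPM at 4 weeks, a log2 fold change of 0.04 (adjusted p = 0.783, edgeR). Between females and males of 8 weeks Nr3c1 had 0.12 ± 0.08 and Nr3c2 0.13 ± 0.12, each with an adjusted p of 0.867 (edgeR).

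Of 8 genes that set the supply of hormone in tissue, 6 passed the filter on low counts, 1 was higher at 8 weeks and 1 lower. Abcb1a, an efflux pump of the blood-brain barrier, rose by 0.52 ± 0.10 (adjusted p = 0.00542, edgeR), with 20.6 ± 2.99 CPM at 8 weeks and 14.3 ± 0.87 CPM at 4 weeks. Srd5a1, the steroid 5-alpha-reductase that inactivates glucocorticoids among other steroids, fell by 0.93 on the log2 scale (SE 0.07; adjusted p = 2.03e-06, edgeR), with 27.9 ± 1.57 CPM at 8 weeks and 53.2 ± 3.36 CPM at 4 weeks. Srd5a1 passed in 22 of 22 alternative settings, and Abcb1a in 20, the exceptions being the muscle score as a covariate (0.04, adjusted p = 0.942) and the fit without both male 4-week libraries, which compares the ages in females alone (0.46, adjusted p = 0.143). Hsd11b1, which regenerates active hormone in cells, had 0.25 (adjusted p = 0.132, edgeR).

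**Figure D5:**
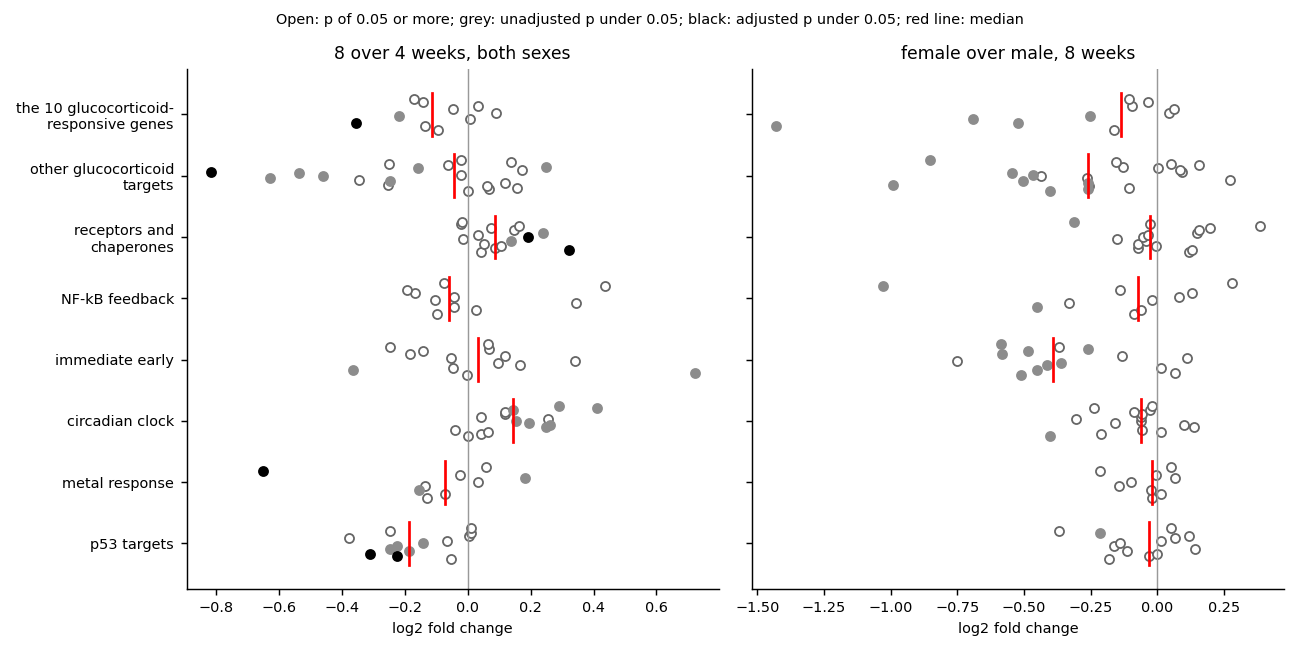
Log2 fold changes (horizontal axes) of the genes of 8 lists, 8 weeks over 4 weeks and females over males of 8 weeks, 1 point a gene, with the list median as a red bar, grey points where the unadjusted p and black points where the adjusted p was under 0.05, and the 10 glucocorticoid-responsive genes on a row of their own. Between females and males of 8 weeks the 20 other glucocorticoid targets (median -0.26) and the 14 immediate early genes (median -0.39) lie mostly below 0.

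The routes that share single members with the 10 genes were counted without those members. Of 9 other metal response genes, Hmox1, the haem oxygenase, was called lower at 8 weeks (-0.65 ± 0.13, adjusted p = 0.00768, edgeR), and Mt3, the brain metallothionein, had -0.13 (adjusted p = 0.417). Of 13 other p53 targets, Ccng1 (-0.31, adjusted p = 0.00691, edgeR) and Mdm2 (-0.22, adjusted p = 0.0300) fell, while the p53 target Cdkn1a had 0.03. Of 16 relatives of the 10 genes, 3 fell: Cdkn1c, the cell cycle inhibitor p57 (-0.83 ± 0.10, adjusted p = 1.25e-04, edgeR), Sgk2 (-0.46, adjusted p = 0.0309) and Tsc22d4 (-0.27, adjusted p = 0.0217). Cdkn1c and Hmox1 passed in 21 of 22 alternative settings, all but the muscle score as a covariate, and Ccng1 in 19. Mdm2 did not pass without any single library other than male 4-week library 1 or male 8-week library 2 (adjusted p between 0.0586 and 0.0884), nor Sgk2 without any other than male 4-week library 2 or male 8-week libraries 1 or 2 (0.0513 to 0.112). Tsc22d4 did not pass without female 4-week libraries 1 or 2 or female 8-week libraries 1 or 3 (0.0539 to 0.0710).

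Of 10 other NF-kB feedback genes, 11 other genes of the switch to fatty acid fuel, 9 other ATF4 genes, 14 immediate early genes and 15 clock genes, 0 were called by age in edgeR, DESeq2 or limma-voom. At an unadjusted p under 0.05 there were 0 of the NF-kB, 3 of the fuel switch, 0 of the ATF4, 2 of the immediate early and 7 of the clock genes, and all 7 of the clock genes were higher at 8 weeks. Of all tested genes 21% had such a p by age. The 2 genes of each list with the lowest p had log2 fold changes of 0.35 for Tnfaip3 and -0.10 for Rela, -0.41 for Fabp3 and -0.35 for Acadm, and -0.12 for Atf4 and 0.20 for Chac1. Those of the immediate early list were Fosl2 (-0.37, adjusted p = 0.0536, edgeR) and Fosb (0.72, adjusted p = 0.0893), and those of the clock list Bhlhe41 (0.29, adjusted p = 0.0823) and Ciart (0.41, adjusted p = 0.163).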

How the data were processed

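The authors deposited raw read counts per Entrez Gene identifier, 1 file per library. Per the submitters' processing notes these came from TopHat2 2.1.0, a spliced aligner, featureCounts and the mouse build mm9; options, strand setting and annotation version are not stated there. Symbols, promoters and exon lengths come from RefSeq and GENCODE M21 tables of GRCm38, a later build than that of the counts, so no coordinate was joined to the counts. The tests across all genes used edgeR 4.0.16 in R 4.3.3: TMM scaling, filterByExpr (minimum count 10, minimum total 15), and the two-sided quasi-likelihood test with Benjamini-Hochberg adjustment over 15540 genes at 0.05. Age and sex over all libraries came from an additive model, and comparisons within a sex or age and the interaction from a model of the 4 groups. SE is the absolute log2 fold change over the square root of F. DESeq2 1.42.0, limma-voom 3.58.1, other scalings and filters, covariates and left-out libraries were alternatives, single values and correlations had permutation tests, and the scripts were tested on simulated counts. The 10 genes and the lists were chosen with earlier results of these data known. Text names all 10 genes, the 2 genes of each other list with the lowest p by age and any called, and the gene most like each of the 10; the 8 other targets, Fos, Nr4a1, Nr3c1, Hsd11b1 and Mt3 were named after their values were seen. The fewest counts of any of the 10 genes in a library was 66, for Zbtb16.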

Additional observations from a re-analysis of the deposited data

Results flagged for a closer look

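Of 40 groups examined (each of the 10 genes in the libraries of 8 weeks, of 4 weeks, of females and of males), 1 held a library that stood far from the others by Dixon's criterion at 95%, where chance gives about 1 in 20. It was Ddit4 in the male libraries: male 8-week library 3 was at 71.5 CPM, against 89.5 to 94.7 CPM in the other 4 male libraries. The gap was 0.774 of the range of the group, against a critical value of 0.71. Male 8-week library 3 also held lung transcripts, with 454 counts of Sftpc, while male 8-week library 2, with 3459 counts of Sftpc, was at 90.4 CPM of Ddit4. The adjusted p of the difference of Ddit4 between females and males of 8 weeks was 0.0299 without that library and 0.170 with it (edgeR).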

How the results depend on the processing

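Of the values recomputed for single genes, 1198 kept their direction and their side of the threshold, 47 changed sign, 31 passed only in the alternative and 84 only in the original fit; the cause was not tested. Several sign changes are of values near 0. Depth limits Zbtb16 most, with 66 to 159 counts a library. Where both male 4-week libraries are left out, age over both sexes is the comparison in females alone, and age in males, sex at 4 weeks and the interaction could not be estimated.

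For age over both sexes, edgeR called 1028 genes, against 49 with the muscle score as a covariate, 474 without male 8-week libraries 2 and 3 and 393 without both male 4-week libraries. Of the 10 genes it called 1, against 2 with no low count filter, in DESeq2, with the mean of contrasts within strata and without both male 4-week libraries, and 0 with the replicate block, with the muscle score and without male 8-week libraries 2 and 3. Leaving out each library in turn gave 0 to 2. Ddit4 was called in 13 of 22 alternative fits, and its exact permutation test gave p = 0.0762. The muscle score gave log2 fold changes of -0.15 for Nfkbia, -0.63 for Zbtb16, 0.46 for Pdk4, 0.29 for Mt1, 0.26 for Mt2 and -0.088 for Nr3c2. As the score separates the ages, calls lost and signs changed with it cannot be assigned to age or to muscle transcripts. Nfkbia was at -0.0027 with the mean of contrasts, -0.030 without male 8-week libraries 2 and 3, -0.16 without both male 4-week libraries and -0.00064 in the permutation test. Cdkn1a was at -0.0036 without male 8-week libraries 2 and 3 and -0.052 without both male 4-week libraries, where Zbtb16 was at -0.15. Leaving out each library gave -0.058 to 0.11 for Nfkbia, -0.051 to 0.24 for Zbtb16, -0.14 to 0.038 for Pdk4, -0.0083 to 0.081 for Cdkn1a and -0.38 to 0.18 for Sgk1.

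For age in males the count of 501 became 50 with the muscle score, where Sgk1 was at -0.20 and Tsc22d3 at 0.059, 15 without male 8-week libraries 2 and 3, and 188 to 1199 without each library in turn, where Sgk1 lay between -0.15 and 0.83. For age in females the count of 226 became 340 with no filter, 20 with the muscle score, 118 without male 8-week libraries 2 and 3, 393 without both male 4-week libraries and 62 to 394 without each library, and of the 10 genes 2 were called with no filter, in DESeq2 and without both male 4-week libraries, 0 with the muscle score, and 0 to 2 without each library. Without each library Sgk1 lay between -0.97 and 0.058, Nfkbia between -0.33 and 0.030, Cdkn1a between -0.14 and 0.014, Mt2 between -0.53 and 0.0085 and Zbtb16 between -0.31 and 0.053, and the muscle score gave 0.42 for Pdk4, 0.26 for Cdkn1a, 0.20 for Mt1 and 0.15 for Mt2.

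For sex over both ages the count of 14 became 60 with no filter, 35 in DESeq2, 38 with the block, 25 with the muscle score, 9 with the mean of contrasts, 9 without both male 4-week libraries and 10 to 28 without each library. Of the 10 genes 1 was called with upper quartile scaling, with library totals alone, in DESeq2 and with the block, 2 with no filter and with the muscle score, and 0 to 2 without each library. At 8 weeks the count of 7 became 34 with no filter, 26 in DESeq2, 23 with the block and 14 with the muscle score, and of the 10 genes 3, 2, 1 and 1 were called in these, and 0 to 1 without each library. Zbtb16 was at -0.037 and Mt1 at 0.019 with the muscle score, and between -0.033 and 0.15 and between -0.14 and 0.036 without each library. At 4 weeks the count of 11 became 17 with no filter, 7 with at least 1 CPM in 4 libraries, 31 in DESeq2, 18 with the muscle score and 10 to 116 without each library, with Tsc22d3 at 0.013 with the muscle score and between -0.092 and 0.048 without each library. For the interaction the count of 2 became 1 in limma-voom, 0 without male 8-week libraries 2 and 3 and 1 to 2 without each library, with Pdk4 between -0.32 and 0.14, Mt1 between -0.37 and 0.0075 and Mt2 between -0.48 and 0.058.

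Whether the replicate numbers pair the samples is not stated in the labels. Same-numbered libraries had deviations from their group means that correlated between -0.228 and 0.259, and differently numbered ones between -0.283 and 0.283. With 2 or 3 libraries a group these values cannot settle the question. With the replicate block age gave 808 calls and Ddit4 -0.28 (adjusted p = 0.0984, edgeR), and Pdk4 was at 0.00056. Under the block Ddit4 at 8 weeks (adjusted p = 0.0273, edgeR) and Nfkbia over both ages (adjusted p = 0.0291) passed between the sexes, and Mdm2, Nr3c2, Sgk2 and Tsc22d4 did not pass by age (adjusted p between 0.0739 and 0.0941).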
